A study of Mus musculus with 3 samples.

Results

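The genes Zfp703 and Zfp503, which encode related zinc finger corepressors, were examined together with their neighbours Thap1, A430057M04Rik and Lrmda for sites bound by Tbx4 and Hoxc10, transcription factors of the hindlimb. These 5 genes, of 21883 protein-coding genes in the mouse gene table, were chosen by the number and scores of the binding sites around them, so that their counts are a description and were not tested. A gene's region was the gene itself plus the sequence up to the next protein-coding gene on either side, by at most 1 Mb. The regions of neighbours overlap, and a site lying in more than 1 of them was counted once. They form 2 stretches, called here the Zfp703 locus (chromosome 8, Thap1 and Zfp703) and the Zfp503 locus (chromosome 14, A430057M04Rik, Zfp503 and Lrmda). Together they held 39 of the 4780 Tbx4 sites (0.816%) and 41 of the 1614 Hoxc10 sites (2.54%).

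The sites come from chromatin immunoprecipitation with sequencing (ChIP-seq) of hindlimb buds from wild-type CD1 embryos at stage e11.5 (in embryonic days), with no treatment named in the labels. There was 1 sample with a homemade Tbx4 antibody and 1 with an Abcam Hoxc10 antibody, while the remaining sample, with a Santa Cruz Hoxc10 antibody, was not analysed here. Nothing in the labels says how many embryos went into a sample. A limb bud holds several tissues, so a site may be bound in only some of its cells, and the files hold no expression values for any of the genes.

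Zfp703 and Zfp503 belong to the NET family of zinc finger proteins, which act in repressor complexes, among them those of the Groucho proteins encoded by the Tle genes. Zfp503 is also known as Nolz1 and was first studied in the developing striatum. Tbx4 is a T-box factor of the hindlimb, and Hoxc10 belongs to the posterior Hox proteins that pattern the hind part of the body. Developmental regulator genes such as these often stand beside long stretches without other coding genes, in which distant enhancers lie.

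Each site is a peak summit of 1 bp on the mouse build mm10 with a score on a −log10 scale, which the peak caller MACS2 computes from a p-value or a q-value. Scores of the 2 lists were not compared as levels. Instead, a score's rank or percentile within its own list is given. The median score was 3.67 over all Tbx4 sites and 7.72 over all Hoxc10 sites. Read depth is unknown, and with 1 list per factor there is no replicate error for any site. A site was called co-bound when a summit of the other factor lay within 200 bp.

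Around the start of Zfp503 the deposited lists held Hoxc10 summits but no Tbx4 summit. The start lies at 21989601 on the minus strand of chromosome 14. A Hoxc10 summit stood 860 bp downstream of it, inside the gene, at 21988741 (score 23.67, rank 116 of 1614). Further Hoxc10 summits followed on the upstream side, at 21991420 (24.63), 1819 bp beyond the gene, and at 21994553 (23.67), 4952 bp beyond it. Both of these lay inside the long noncoding RNA gene A330001L22Rik. The nearest deposited Tbx4 summit to the start was 59297 bp away. On either side of the start the deposited Tbx4 summits, at 21904041 and 22048898, carry the peak numbers 11672 and 11674. A Tbx4 peak numbered between them was thus left out of the list, so Tbx4 need not be absent here. The bases just before the start are shown because they lie between the first and the second of these Hoxc10 summits. They are the 250 bases at chr14:21989602-21989851 on the minus strand, written 5′ to 3′ and taken from RefSeq (GRCm38.p6, the same build as mm10).

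Zfp503 upstream: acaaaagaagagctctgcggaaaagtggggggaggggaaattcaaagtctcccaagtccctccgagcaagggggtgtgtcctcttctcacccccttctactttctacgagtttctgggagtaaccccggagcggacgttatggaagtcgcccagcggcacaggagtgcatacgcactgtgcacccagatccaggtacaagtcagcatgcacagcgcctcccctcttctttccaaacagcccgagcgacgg

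The stretch had 57.2% G and C and 13 CpG dinucleotides, against medians of 52.4% and 6 over all 32851 such upstream stretches in the table. Letters of 3 motifs of 6 bases were searched on both strands: AGGTGT, a core recognised by T-box factors, and TTTATG and TTTATT, as bound by posterior Hox factors. None of the 3 occurs in it, so no letter is in capitals. Of all such stretches 11.8% hold AGGTGT, 10.8% TTTATG and 18.1% TTTATT. The 250 bases before the start of Lrmda hold TTTATT once and neither of the others. No summit of either factor fell within any of the 17 start windows of 300 bases that the table has for the 2 loci, which do not include the starts of Zfp703, Thap1 and A430057M04Rik. These letters thus describe sequence near sites and not bound sequence.

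The Zfp703 locus was the more densely occupied of the pair. It ran from 26143876, just above the gene Rnf170, to 27023370, just below Erlin2, and over these 879.5 kb held 19 Tbx4 and 21 Hoxc10 sites. That is 21.6 Tbx4 and 23.9 Hoxc10 sites per Mb, against 1.8 and 0.604 per Mb over the merged regions of all protein-coding genes. No summit fell inside Zfp703 or inside Thap1. Nearly all stood in the 813.2 kb between the 2 genes, 17 for Tbx4 and 18 for Hoxc10, and the remaining 2 and 3 between Zfp703 and Erlin2. Most sites lay nearer to Zfp703 than to Thap1: 14 of the 19 Tbx4 sites and 18 of the 21 Hoxc10 sites were within 350 kb of Zfp703. This limit just takes in the sites that begin 321 kb from the gene. Within 200 kb there were 10 Tbx4 and 11 Hoxc10 sites, and within 100 kb 5 of each. These counts do not show a crowding close to the gene itself.

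**Figure D1:**
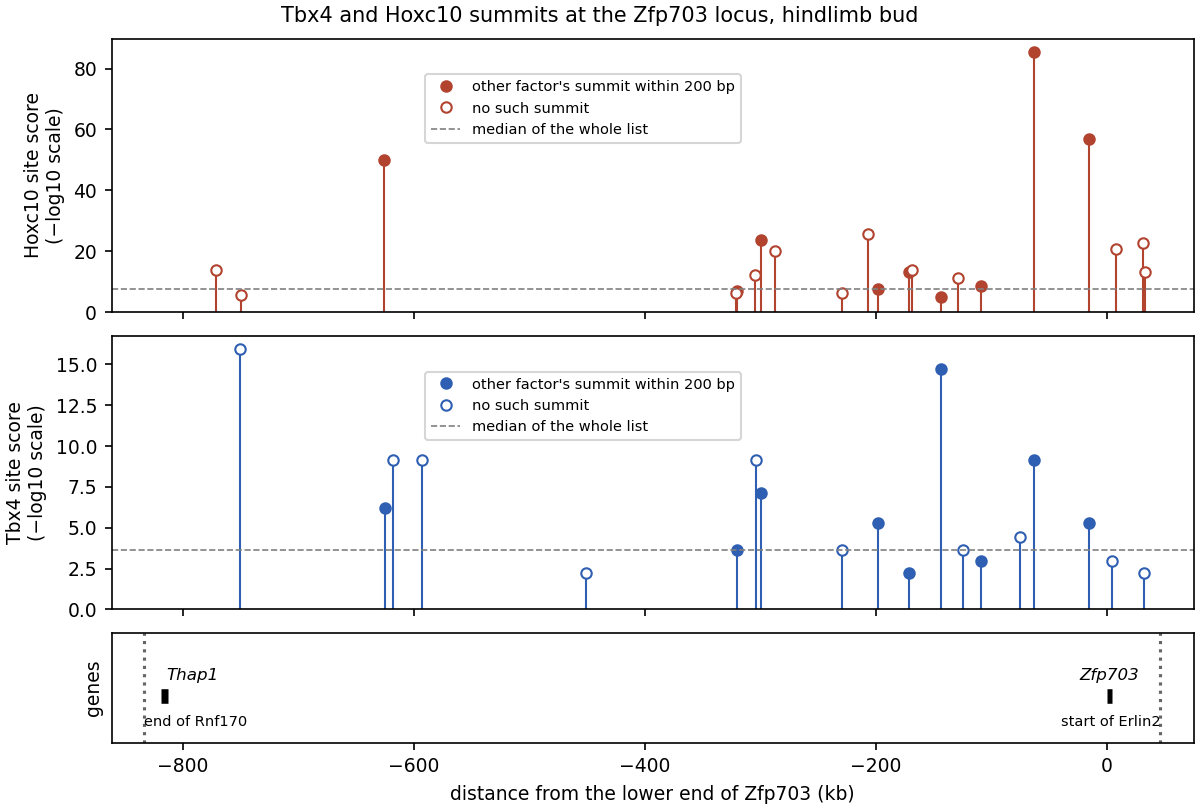
Summits of Hoxc10 (top) and Tbx4 (middle) at the Zfp703 locus by distance from the lower end of Zfp703 in kb, with the site score on a −log10 scale and an axis of its own for each list. Filled points have a summit of the other factor within 200 bp, the dashed line is the median of the whole list, black bars are genes, and dotted lines are the borders of the locus. The highest Hoxc10 stem, 85.52, stands 63.0 kb below Zfp703.

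The 3 strongest Hoxc10 sites of this locus were all accompanied by Tbx4. The highest, at 26914355 with a score of 85.52 (rank 7 of 1614), lay 63.0 kb below Zfp703, and its Tbx4 partner 78 bp away scored 9.15 (rank 756 of 4780). Next came a summit at 26961461, 15.9 kb below the gene and inside the noncoding gene Gm39150, with a score of 57.02 (rank 13) and a Tbx4 summit of 5.3 at 63 bp. The last of them, at 26351799, stood 626 kb from Zfp703 towards Thap1, with a score of 50.05 (rank 17) and a Tbx4 summit of 6.19 at 33 bp. At these places Hoxc10 was among the top sites of its list, while the Tbx4 scores were at percentiles 82.9, 64.6 and 71.3 of theirs.

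Altogether 9 of the 21 Hoxc10 sites were co-bound, or 42.9% (95% Wilson interval 24.5 to 63.5%, which covers counting error only), against 32.1% of the whole Hoxc10 list. Of the Tbx4 sites 9 of 19 were co-bound, or 47.4% (27.3 to 68.3%), against 10.9% of the Tbx4 list. The gap between the summits of a pair ran from 33 to 134 bp with a median of 78 bp.

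The 6 other pairs differed in which factor stood at the higher percentile of its own list. At 26677841, in the noncoding gene Gm32098 and 299 kb from Zfp703, Hoxc10 was at percentile 92.2 (score 23.58) and Tbx4, 78 bp away, at percentile 76.1 (7.14). At 26805534 Hoxc10 was at percentile 76.0 (13.04) and Tbx4 at 14.2 (2.26), with a gap of 64 bp. The reverse was seen at 26833675, 144 kb from Zfp703, where Hoxc10 had its lowest score in the locus, 5.05 (percentile 26.5), and Tbx4, 80 bp away, was at percentile 91.7 (14.74).

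In the other 3 pairs both factors were at percentiles between 30.4 and 64.6. At 26656803 the percentiles were close, 44.1 for Hoxc10 (7.02) and 44.9 for Tbx4 (3.67), with a gap of 81 bp. At 26779264, the pair with the widest gap, 134 bp, they were 48.7 for Hoxc10 (7.72) and 64.6 for Tbx4 (5.3). At 26868489 Hoxc10 was the higher, at 53.7 (8.43) against 30.4 for Tbx4 (2.94), with a gap of 46 bp.

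Further Hoxc10 sites of this locus had a Tbx4 summit just beyond the 200 bp limit. The nearest of them, at 27009881 in the noncoding gene Gm32389, was 228 bp from its Tbx4 neighbour, compared with 134 bp for the widest pair inside the limit. At 26672918, in Gm32098, Hoxc10 scored 12.24 and had a Tbx4 summit of 9.15 (rank 756) at 26673206, 288 bp away. Others were 309 and 499 bp away. With those at 895 and 946 bp, which share a Tbx4 summit with a closer Hoxc10 site, 6 of the 21 Hoxc10 sites had their nearest Tbx4 summit beyond 200 and up to 1000 bp, out of 109 such sites in the whole list. The Zfp703 locus thus holds 15 Hoxc10 sites with Tbx4 in 1000 bp, or 71.4%, against 38.8% of the list.

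Sites without any deposited partner in 1000 bp numbered 6 for each factor, and peaks left out of the lists may stand nearer. The highest of the Hoxc10 ones stood at 26770680 (25.59, rank 94). The deposited Tbx4 summits on either side of it carry the numbers 37238 and 37242, so Tbx4 peaks numbered between them were left out. Another Hoxc10 site, at 26984773 and 3311 bp above the upper end of Zfp703, scored 20.86. The Tbx4 site closest to Zfp703 lay 17 bp beyond that same end, at 26981479, with a low score of 2.94 (rank 2939 of 4780). Its nearest deposited Hoxc10 summit was 3294 bp away. The deposited Hoxc10 summits on either side of it carry the numbers 3336 and 3338, so a Hoxc10 peak numbered between them was left out.

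Thap1, which encodes a zinc finger factor with a THAP domain, shares every one of its 17 Tbx4 and 18 Hoxc10 sites with Zfp703, since none lay inside it or in the 14.29 kb between it and Rnf170. The sites nearest to Thap1 were the Hoxc10 summit at 26205965 (13.86) and a Tbx4 summit at 26227062, which at 15.93 (rank 333) had the highest Tbx4 score of the locus and a Hoxc10 summit of 5.69 at 309 bp. With an extension of at most 500 kb Thap1 kept 6 Tbx4 and 5 Hoxc10 sites. Between 26351799 and 26655989 the deposited Hoxc10 list had no site for 304 kb, but these ends carry the peak numbers 3317 and 3319. A Hoxc10 peak numbered between them was thus left out of the list. The Tbx4 list had 4 sites in this stretch: the co-bound one at 26351832 (6.19), those at 26359085 and 26384485 (9.15 each) and one at 26526678 (2.26).

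The Zfp503 locus was longer and ordered differently. It ran from the lower end of A430057M04Rik at 21847578, where that gene overlaps Comtd1, to 23292287, just below Kcnma1, the gene of a potassium channel. Over these 1445 kb stood 20 Tbx4 and 20 Hoxc10 sites, or 13.8 per Mb for each factor. Most were inside Lrmda, 17 for Tbx4 and 14 for Hoxc10. Inside any protein-coding gene were thus 17 of the 20 Tbx4 and 15 of the 20 Hoxc10 sites, against 46.5% and 38.9% of the whole lists, while the Zfp703 locus had none.

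**Figure D2:**
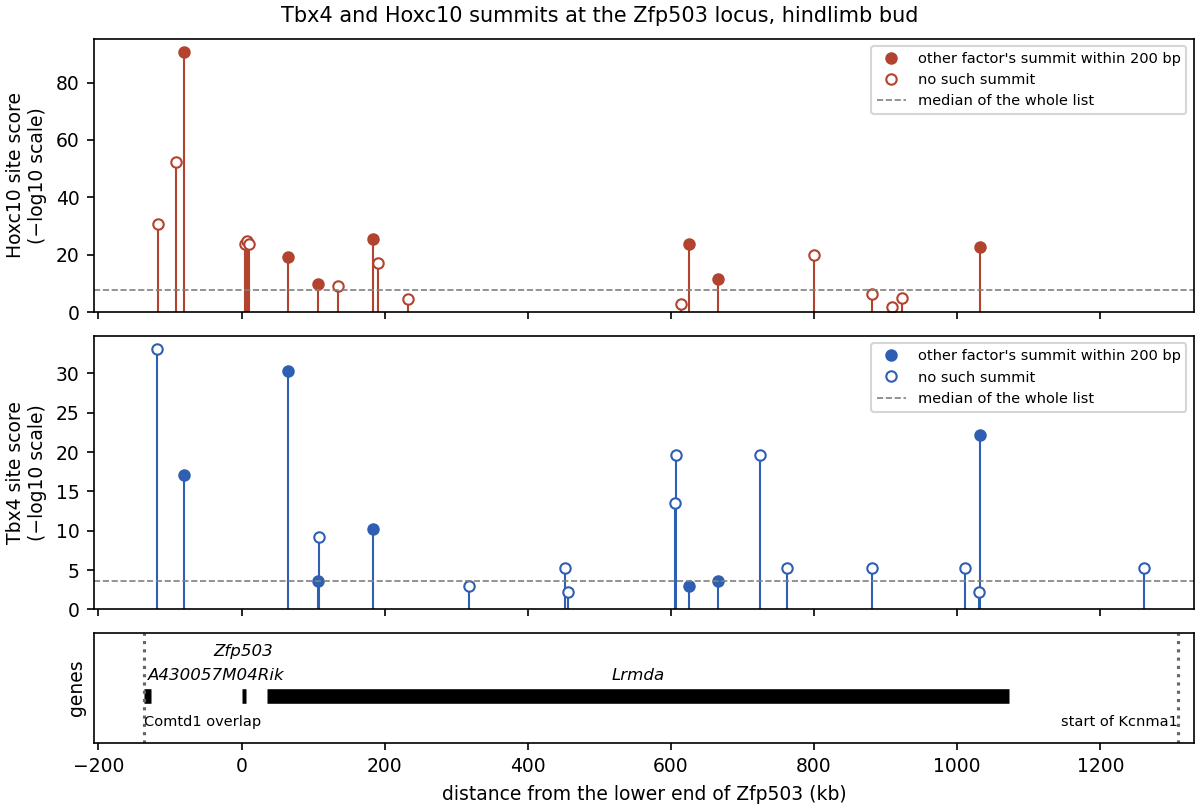
Summits of Hoxc10 (top) and Tbx4 (middle) at the Zfp503 locus by distance from the lower end of Zfp503 in kb, drawn with the site score on a −log10 scale and a separate axis for each list. Filled points have a summit of the other factor within 200 bp, the dashed line is the list's median, black bars are genes and dotted lines the borders. The highest Hoxc10 stem, 90.72, stands 80.0 kb below Zfp503, and Hoxc10 has no stem over 382 kb in the middle of Lrmda.

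The strongest Hoxc10 sites of this locus lay in the 127 kb between A430057M04Rik and Zfp503, and belong to the regions of both genes. The highest, at 21903955 and 80.0 kb below Zfp503, scored 90.72 (rank 5 of 1614), with a Tbx4 summit of 17.15 (rank 301 of 4780) at 86 bp. A Hoxc10 summit 92.0 kb below Zfp503, at 21891989, scored 52.35 (rank 15), and its nearest deposited Tbx4 summit was 12052 bp away. The deposited Tbx4 summits on either side of it carry the peak numbers 11670 and 11672. A Tbx4 peak numbered between them was thus left out of the list, so Tbx4 need not be absent there. The third Hoxc10 summit, at 21866927, scored 30.56 (rank 70). It lay 390 bp from the highest-scoring Tbx4 site of the locus, at 21866537 with 33.08 (rank 94), and so just outside the limit for co-bound sites. These 3 Hoxc10 and 2 Tbx4 sites are all that A430057M04Rik has, with none inside the gene itself.

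Zfp503 had 6 Hoxc10 and 2 Tbx4 sites in a region of 162.6 kb: those of the lower stretch and the 3 Hoxc10 sites around its start. Every one of the 6 Hoxc10 scores was at least 23.67, above the 90th percentile of the list (20.86). Only the pair at 21903955 was co-bound. The 2 upper sites lie between Zfp503 and Lrmda and belong to the regions of both.

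Lrmda, a gene of melanocyte differentiation that spans 1037 kb, had 18 Tbx4 and 16 Hoxc10 sites in its region. Of these, 6 pairs were co-bound, all of them inside the gene. The strongest Tbx4 member was at 22048898, 59.3 kb from Zfp503, with 30.28 (rank 114) and a Hoxc10 summit of 19.04 at 32 bp. The closest pair was at 22168289, with summits 24 bp apart, 25.59 for Hoxc10 and 10.21 for Tbx4. Near the far end of the gene, over 1 Mb from Zfp503, a pair at 23015774 was high in both lists, with 22.72 (rank 132) for Hoxc10 and 22.2 (rank 191) for Tbx4 at 27 bp.

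The other 3 pairs in Lrmda had low Tbx4 scores. They were at 22091048 (Hoxc10 9.91, Tbx4 3.67, gap 102 bp), at 22609560 (23.67 and 2.94, 80 bp) and at 22649895 (11.45 and 3.67, 64 bp). A second Tbx4 summit, of 9.15, stood 517 bp from the first of these Hoxc10 sites.

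Inside Lrmda the deposited Hoxc10 list had a long gap, from 22215997 to 22597880, that is for 382 kb. Its ends carry the Hoxc10 peak numbers 1093 and 1096, so peaks numbered between them were left out of the list. The gap held 5 Tbx4 sites, at 22302007 (2.94), 22435942 (5.3), 22440823 (2.26), 22589575 (13.57) and 22591403 (19.64). On the Zfp503 side of it 12 Hoxc10 and 6 Tbx4 sites of the locus had medians of 23.67 and 13.68, and on the Kcnma1 side 8 and 9 sites had medians of 8.895 and 5.3. Of the other sites on the far side, the Tbx4 summit at 22708478 scored 19.64 with its nearest Hoxc10 summit at 58583 bp. The Hoxc10 summit at 22783501 scored 19.94 with its nearest deposited Tbx4 summit at 37121 bp. Around it the deposited Tbx4 summits carry the numbers 11693 and 11697, so Tbx4 peaks numbered between them were left out. Hoxc10 scored 1.71 at 22892397, the lowest value of the locus and rank 1607 of 1614.

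For the whole Zfp503 locus 7 of 20 sites were co-bound in each list, or 35% (Wilson interval 18.1 to 56.7%), with gaps of 24 to 102 bp and a median of 64 bp. Over the whole lists the shares were 32.1% for Hoxc10 and 10.9% for Tbx4, and the differences were not tested. The whole lists hold 4780 Tbx4 and 1614 Hoxc10 sites, while each locus holds the factors in similar numbers. The Tbx4 shares of the loci and of the list are therefore not on a like footing. Beyond the limit, 2 more Hoxc10 sites had their nearest Tbx4 summit at 390 and 468 bp, and 11 had no deposited one within 1000 bp.

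Across both loci the 16 co-bound pairs joined 16 sites of each list, or 41.0% of the 39 Tbx4 sites, against 10.9% of the Tbx4 list, and 39.0% of the 41 Hoxc10 sites, against 32.1% of the Hoxc10 list. Their median gap was 71 bp, compared with 63.5 bp over all co-bound Hoxc10 sites, and 5 pairs were within 50 bp. In 11 of the 16 the Hoxc10 score stood at a higher percentile of its list than the Tbx4 score of its own, 6 of 9 at the Zfp703 locus and 5 of 7 at the Zfp503 locus. Both scores exceeded their list's median in 8 pairs. The median Hoxc10 score of the 16 was 20.88, against 8.955 for all co-bound Hoxc10 sites, and the median Tbx4 score 5.745, against 7.14.

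**Figure D3:**
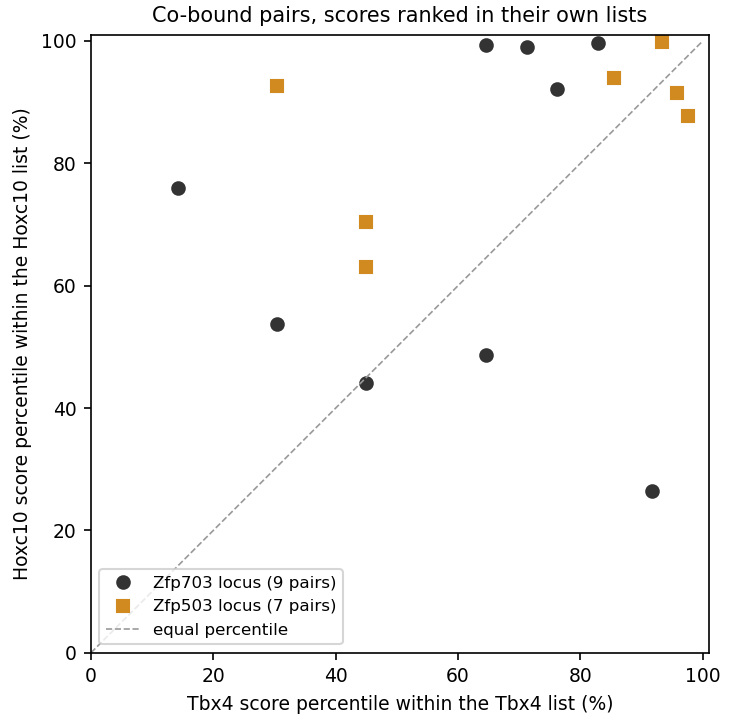
Each point is 1 co-bound pair, with the percentile of its Tbx4 score within the Tbx4 list on the horizontal axis and that of its Hoxc10 score within the Hoxc10 list on the vertical axis, in percent. Circles are the 9 pairs of the Zfp703 locus, squares the 7 of the Zfp503 locus, and the dashed line marks equal percentiles. In all, 11 of 16 points lie above the line, and the circle at the lower right is the pair at which Tbx4 is at 91.7% and Hoxc10 at 26.5%.

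High Hoxc10 scores were frequent in both loci, and high Tbx4 scores in one. At or above the 90th percentile of the Hoxc10 list, which by ties holds 11.0% of it, were 7 of 21 sites (33.3%) of the Zfp703 locus and 9 of 20 (45.0%) of the Zfp503 locus. For Tbx4, where the same limit holds 10% of the list, the numbers were 2 of 19 (10.5%) and 7 of 20 (35%). The median Hoxc10 score was 13.04 in the Zfp703 locus and 19.49 in the Zfp503 locus, and the median Tbx4 score 5.3 in each. Whether the loci differ from each other or from the rest was not tested, as the sites were chosen with their scores known and there are no replicates. In the Zfp703 locus the median Hoxc10 score was 13.04 for the 9 co-bound and 13.45 for the 12 other sites, while the median Tbx4 score was 5.3 for the 9 co-bound and 4.06 for the 10 other sites. In the Zfp503 locus the co-bound sites had the higher median in both lists, with 22.72 for 7 and 17.26 for 13 Hoxc10 sites and 10.21 for 7 and 5.3 for 13 Tbx4 sites.

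Among all protein-coding genes, Zfp703 had the largest number of Hoxc10 sites in its region, 21, and Thap1, with 18, the next. Lrmda had rank 4 for both factors, and Zfp703 rank 3 for Tbx4, with 19. All 5 members had sites of both factors and a co-bound site, but they are not separate cases. Thap1 and Zfp703 share the same 9 pairs, and A430057M04Rik and Zfp503 share the same 1. Of the 21883 genes, 17.2% had a Tbx4 site, 6.83% a Hoxc10 site, 5.0% both and 2.66% a co-bound Hoxc10 site, and only 7 genes, or 0.032%, had at least 10 sites of each. These counts grow with the length of the region, which was 859.2 kb for Zfp703, 833.5 kb for Thap1 and 1303 kb for Lrmda, against a median of 67.3 kb over all genes. The shorter regions of Zfp503 (162.6 kb) and A430057M04Rik (136.4 kb) placed those genes at ranks 18 and 111 for Hoxc10 and both at rank 657, with ties, for Tbx4.

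**Figure D4:**
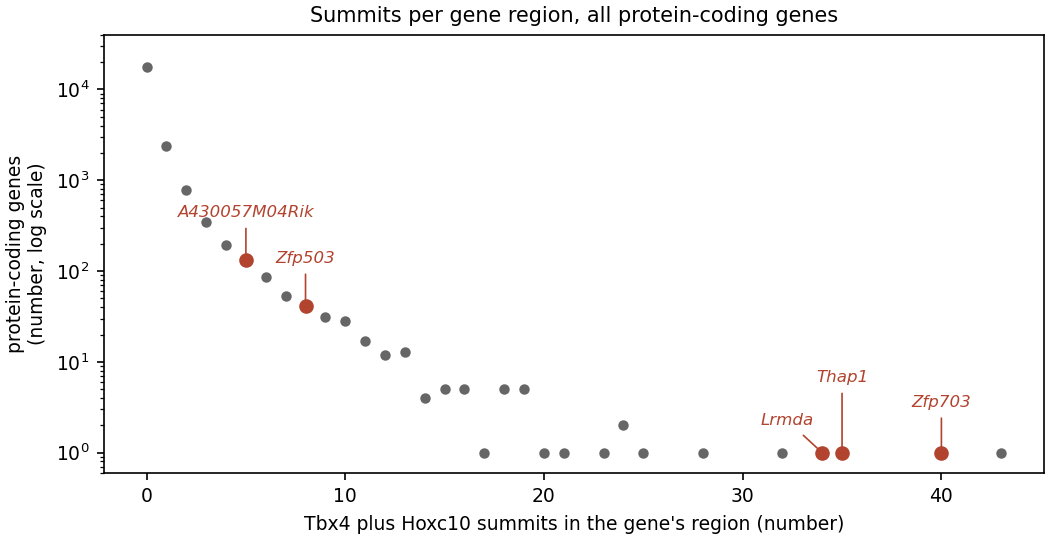
Number of protein-coding genes (vertical axis, log scale) by the number of Tbx4 plus Hoxc10 summits in the gene's region (horizontal axis), for all genes. The 5 members are marked in red: Zfp703 has 40 summits, Thap1 35, Lrmda 34, Zfp503 8 and A430057M04Rik 5, and neighbours share sites.

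Sites were also counted at other genes of the repressor machinery. A list of 19 other corepressor genes held the Groucho genes Tle1 to Tle6, Ctbp1 and Ctbp2, the nuclear receptor corepressor Ncor1, Sin3a and Sin3b, the histone deacetylases Hdac1 to Hdac3, Rcor1 to Rcor3, Dcaf7 and Phb2. Of these, 5 had a Tbx4 site (26.3%, against 17.2% of all genes), 3 a Hoxc10 site (15.8%, against 6.83%), 3 a co-bound Hoxc10 site (15.8%, against 2.66%) and 14 neither factor (73.7%, against 81.0%). Tle3 had 17 Tbx4 sites, the best at 35.95, but only 2 Hoxc10 sites, both co-bound, in a region of 1033 kb. Tle4 had 2 of each with best scores of 31.67 and 28.55 and 1 co-bound site, and Ctbp2 1 of each, forming a pair. The 19 regions had a median of 67.9 kb, but the 5 with a site were all longer than that, from 137.6 kb for Ctbp2 to 1678 kb for Tle4. Regions without a site reached at most 187.2 kb. How far the shares depend on region length was not tested.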

How the data were processed

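Binding of Tbx4 and Hoxc10 was measured by ChIP-seq in hindlimb buds, with 1 sample for each antibody. The submitters' processing notes name Bowtie2 2.2.6, MACS2 2.1.1.20160309 and HOMER, with the build mm10. The authors deposited peak summits with a score on a −log10 scale, taken from a p-value or a q-value, which of these is not stated. The control library, any pooling of libraries and the way the deposited summits were selected are likewise not given in the sources used. The name of the Hoxc10 list may mean that only summits within 200 bp of a Santa Cruz peak were kept. Depth is unknown, so no precision per site can be given.

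Gene positions came from the RefSeq table of GRCm38.p6, in which all 5 members matched by symbol, and strands from the table of gene starts, which has Zfp503 and Lrmda. Summits were counted in the gene regions and paired within 200 bp, with coordinates 1-based, in Python 3.11.15 with pandas 2.3.3 and scipy 1.17.1. Intervals of shares are 95% Wilson intervals. The counting of regions and pairs was tested on simulated data. No test across sites was run, since sites of 1 list are not replicates. The members and gene lists were chosen with earlier results of these data known. Described in full were the co-bound pairs and, for each locus and factor, the 5 highest sites, with ties, and named were the genes at the borders and the listed corepressor genes with sites of both factors. A further corepressor gene of the planned list is not reported here, and the list and its counts are given without it. Alternatives were another border, another limit of extension, the sites at or above the median score of each list, merged summits and other distances for co-bound sites.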

Additional observations from a re-analysis of the deposited data

How the results depend on the processing

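Of 104 recomputed values under 8 alternatives, 95 stayed within 1.5 times the reported count or inside the reported interval. The number of co-bound Hoxc10 sites followed the distance allowed. Within 50 bp it was 2 at the Zfp703 locus (9.52% of its Hoxc10 sites) and 3 at the Zfp503 locus (15%), against 13.5% of the whole list. Within 1000 bp it was 15 (71.4%) at the Zfp703 locus. At the Zfp503 locus it was then 9 (45%), against 38.8% of the list. Among sites at or above the median score of their list, 5 Hoxc10 sites of the Zfp703 locus (31.2%) and 6 of 15 of the Zfp503 locus (40%) were co-bound, against 31.5% of the whole list limited in the same way. Thus the share above that of the list was not seen in the Zfp703 locus with 50 bp or with the higher-scoring sites. In the Zfp503 locus the share was above that of the list in each of these settings, but by little for so few sites. Its Wilson intervals were wide: 5.24 to 36.0% with 50 bp, 19.8 to 64.3% with the higher-scoring sites and 25.8 to 65.8% with 1000 bp. These differences were not tested. Counts of sites for the loci did not change with a border 1 kb before the next gene, with an extension of at most 500 kb or with summits merged within 500 bp. The positions fixed this in advance. The outermost sites lay at least 13.5 kb inside the borders, and 500 kb from each gene covers the 813.2 kb between Thap1 and Zfp703. No summits of the same factor stood within 500 bp of each other. The 95 values include these fixed ones. For the region of Thap1 taken singly the 500 kb limit left 6 Tbx4 and 5 Hoxc10 sites. The region of Zfp703 kept 15 of its 19 Tbx4 and 18 of its 21 Hoxc10 sites. No paired analysis was possible because each group holds 1 sample. For the same reason no replicate could be left out.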

Other observations

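The Zfp703 locus stood alone in the Hoxc10 list. The next deposited Hoxc10 summit below it lay 14.6 Mb outside its border, at 11586241 of chromosome 8 (22.72), and the next above it 5.4 Mb outside, at 32424771 (3.26). For Tbx4 the nearest sites were 174 kb below (20.88) and 163 kb above (8.12). The Zfp503 locus had its next Hoxc10 sites 478 kb below (6.34) and 971 kb above (22.72), and its next Tbx4 sites 168 kb below (2.26) and 93.7 kb above (4.46).

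The running numbers in the peak names give a count of the peaks MACS2 had numbered before the deposited ones were selected. In the Zfp703 locus 21 of 28 numbers from the first to the last Hoxc10 site were in the deposited list (75%) and 19 of 28 for Tbx4 (67.9%). In the Zfp503 locus the shares were 20 of 22 (90.9%) for Hoxc10 and 20 of 44 (45.5%) for Tbx4. Over the whole lists they were 40.1% and 10.6%. A span that starts and ends at a deposited site has a raised share by construction, and the members were chosen for their many sites. In the 14.6 Mb below the Zfp703 locus 28 Hoxc10 numbers passed without a deposited summit.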
